A study of Tachysurus vachellii with 12 samples.

Results

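Named liver transcripts of the bagrid catfish Tachysurus vachellii, called Pelteobagrus vachelli in the series title, were compared between hypoxia and normal oxygen. A member is any assembled transcript group (component) of the deposited mRNA table whose name field holds a gene name. There are 15051 such components among 34744, and 19693 carry no name. All of them are described across functions, with weight on genes outside the usual sets of hypoxia-inducible factor (HIF) targets and glycolytic enzymes. The fish were juveniles, with no genotype or strain stated. The 3 control libraries came from fish kept at 6.8 mg/L oxygen and the 3 hypoxia libraries from fish held at 0.7 mg/L for 4 h. Each library was made from a pool of 5 livers, and pools are lettered a, b and c in both groups. Controls were taken from 3 aquaria first and the same aquaria were then made hypoxic with nitrogen gas, so low oxygen, time in the experiment and time of sampling cannot be told apart.

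The liver supplies the blood with glucose, lipoproteins and plasma proteins, breaks down amino acids, and stores iron and copper. When oxygen falls, HIF transcription factors escape oxygen-dependent degradation and switch on genes for anaerobic glycolysis, blood vessel growth and red cell formation. Other responses to low oxygen act through energy sensing kinases, cyclic AMP, nuclear receptors and chromatin enzymes, several of which use molecular oxygen as a substrate.

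The libraries held 32652402 to 35852327 estimated counts, so that 3 counts correspond to 0.0837 to 0.0919 counts per 1000000 (CPM), which covers counting error only. Named components took 73.3 to 77.6% of all counts. Both c libraries stood apart on the second principal component, which held 26.9% of the variance, at -62.3 for control c and -61 for hypoxia c against 14.3 to 46.3 in the other 4. In bulk tissue, fewer cells of a type and less RNA per cell cannot be told apart.

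Markers of the labelled tissue were abundant. Of 12 hepatocyte markers tested, none rose or fell, and their summed level was 55964 to 80178 CPM in control and 59508 to 68536 CPM in hypoxia. The complement gene c3 led them with means of 23906 and 22383 CPM. Albumin and PECAM1 were not matched under those names. The gene apoa1, the main protein of high density lipoprotein, stood, in the order of pools a, b and c, at 21.5, 24.1 and 20.6 CPM in control and at 46.8, 95.4 and 26.8 CPM in hypoxia. These groups did not overlap, and apoa1 did not pass the test (adjusted p = 0.077, or 0.034 with the pool letter as a block). Blood and pancreas varied within both groups: hba, an alpha globin, ran from 688 to 1282 CPM in control and from 280 to 1242 CPM in hypoxia, and hbb, a beta globin, from 545 to 1209 CPM and from 278 to 1160 CPM. Prss1, a trypsin of the exocrine pancreas, ran from 3.33 to 287 CPM in control and from 121 to 415 CPM in hypoxia. The summed exocrine pancreas markers spanned 239 to 5584 CPM in control and 2076 to 8255 CPM in hypoxia, and 0 of 11 passed in the edgeR test. Their log2 fold changes had a median of 0.61 and a lowest of 0.01. The 13 leukocyte and macrophage markers summed to 67.5 to 80.2 CPM in control and 64.8 to 86.1 CPM in hypoxia, and ptprc, a surface phosphatase of leukocytes, spanned 7.99 to 9.16 CPM and 6.92 to 13.4 CPM. The 10 endothelial markers summed to 160 to 196 CPM in control and to 213 to 224 CPM in hypoxia, and of these FLT1, a receptor for vascular endothelial growth factor, rose (log2 fold change 1.50, adjusted p = 0.0049). The other 9 did not pass, and the list had a median log2 fold change of 0.01 and a lowest of -0.61. Of 13 stellate and fibroblast markers HAND2 fell, from 2.8, 2.85 and 3.36 CPM to 0.725, 1.13 and 1.5 CPM, and 12 did not pass. This list had a median log2 fold change of 0.06 and a highest of 4.01. Its sums overlapped, at 943 to 1168 CPM in control and 848 to 1288 CPM in hypoxia. Of 11 muscle markers the creatine kinase CKM was called lower. Its controls were 23.6, 0.182 and 18.1 CPM and its hypoxia libraries 0.242, 0.304 and 0.531 CPM, so control b lay below all of hypoxia, and the call was lost in limma-voom and without control a, control c or any hypoxia library. None of 8 bile duct markers passed, and their sums were 1949 to 2265 CPM in control and 1888 to 1977 CPM in hypoxia.

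Among named genes more rose than fell, and the rises were larger. Of 13016 named components tested (86.5% of those named, under 9382 distinct names), 479 rose (3.68%) and 333 fell (2.56%) at an adjusted p under 0.05 in edgeR's quasi-likelihood test, Benjamini-Hochberg adjusted over all 25415 components tested. The other 2035 named components were too low to test. Over all components 1159 rose (4.56%) and 458 fell (1.8%). Among the 12399 unnamed components tested (63% of the unnamed), 680 rose (5.48%) and 125 fell (1.01%). Unnamed components were lower in level, with a median control level of 0.968 CPM against 5.72 CPM for named ones. The median log2 fold change, always hypoxia minus control, was -0.08 among named, 0.09 among unnamed and 0.00 among all components tested.

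Named genes that rose had a median log2 fold change of 1.44, and 128 of 479 (26.7%) exceeded 2 on that scale. Those that fell had a median size of 1.06 on the log2 scale, and 19 of 333 (5.71%) exceeded 2. A group mean of 10 CPM was reached by 357 of the risers and 146 of the fallers. The 3 hypoxia libraries lay on the far side of the 3 controls in all 479 risers and in 332 fallers, CKM being the exception, a count fixed largely by the choice of genes through the test. With the pool letter as a block 723 named genes rose and 568 fell. Leaving out control a brought these counts to 153 risers and 34 fallers, and leaving out control b to 208 and 57. Omission of hypoxia a gave 262 and 77, and omission of hypoxia b gave 248 and 69.

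**Figure D1:**
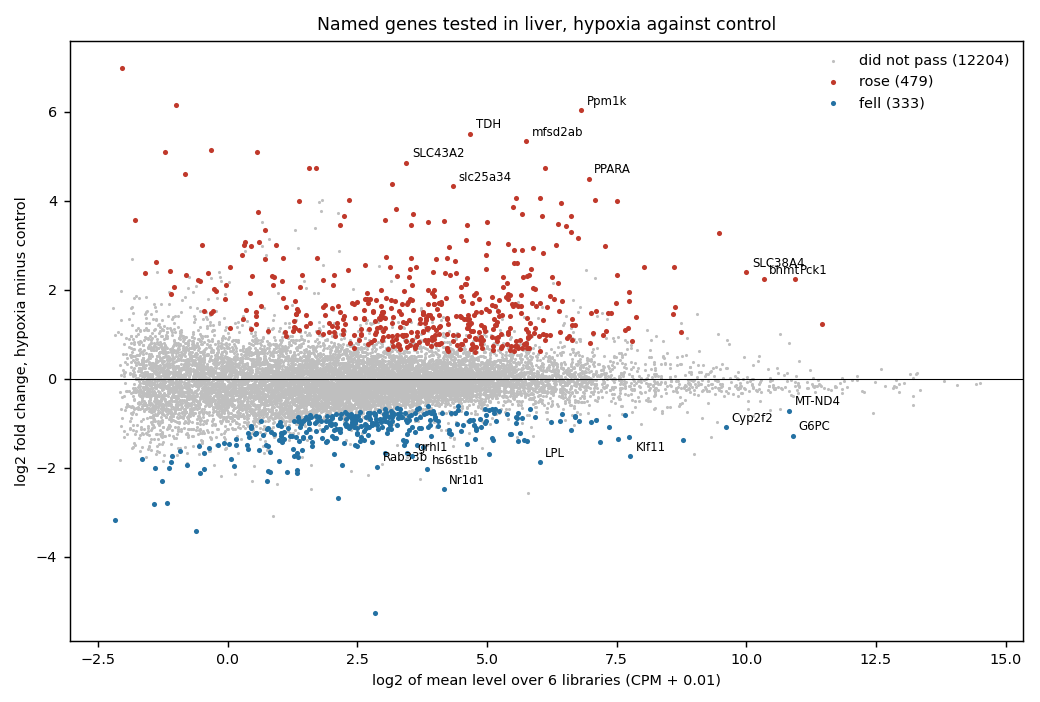
Each point is a named component tested, placed by the log2 of its mean level over both groups (CPM plus 0.01) and by its log2 fold change, hypoxia minus control; red points rose (479), blue points fell (333) and grey points did not pass. Rises reach higher values than falls, and Ppm1k, TDH and mfsd2ab lie at the top among genes with a hypoxia mean above 10 CPM.

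The replicate pools did not respond alike in every gene. Among risers at 10 CPM or more, the median ratio of highest to lowest library was 1.38 in hypoxia and 1.31 in control. Among fallers at that level it was 1.36 and 1.22. Among the 357 risers at 10 CPM or more, the highest hypoxia library was a in 255, b in 32 and c in 70. In 27 of them the highest hypoxia library exceeded the lowest more than 3 times, against 3 with such a spread among controls. Among the 146 fallers at that level none had so wide a spread in hypoxia and 3 had it in control. Their highest hypoxia library was c in 70, b in 57 and a in 19. The like counts over all genes tested were not made. Values below are given in CPM in the order a, b, c.

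Several of the largest rises outside the HIF and glycolysis lists belonged to mitochondrial enzymes and carriers. Ppm1k, a phosphatase that activates the breakdown of branched-chain keto acids, measured 2.8, 3.94 and 3.43 CPM in control and 351, 224 and 90.1 CPM in hypoxia. TDH, which starts the breakdown of threonine, measured 1.2, 1.06 and 1.06 CPM in control and 101, 36.9 and 12.9 CPM in hypoxia. In both genes every hypoxia library lay far above every control, with hypoxia a highest and hypoxia c lowest. Their log2 fold changes were 6.03 (SE 0.51, adjusted p = 0.00034) and 5.50 (SE 0.71, adjusted p = 0.0032). The uncoupling protein gene ucp2, annotated in the table as brown fat uncoupling protein 1, measured 20.1, 20 and 7.13 CPM in control and 391, 275 and 103 CPM in hypoxia. Both c libraries were the lowest of their group, and the groups were separate (log2 fold change 4.02, adjusted p = 0.0048). A second component named ucp2, at a mean of 68.2 CPM in control, rose by 1.48 (adjusted p = 0.041). Its call was lost in limma-voom, in the unfiltered fit and when any single library other than hypoxia c was omitted. The carrier slc25a34, of the mitochondrial carrier family, was more even, at 2.07, 2.67 and 0.997 CPM in control and 44.1, 38 and 34 CPM in hypoxia (log2 fold change 4.33, adjusted p = 0.00022). A further carrier of that family, slc25a38a, named for a glycine importer that feeds heme synthesis, went from 68, 68.9 and 43.4 CPM to 412, 249 and 252 CPM (log2 fold change 2.34, adjusted p = 0.0022).

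The largest rises and gains also included 3 amino acid carriers of the plasma membrane. SLC38A4, a sodium-coupled carrier of neutral amino acids that is abundant in mammalian liver, measured 356, 376 and 255 CPM in control and 2781, 1488 and 889 CPM in hypoxia. It rose by 2.39 on the log2 scale (SE 0.39, adjusted p = 0.009). slc38a2, of the same family, had 41.5, 41.6 and 22.4 CPM in control and 557, 209 and 62.1 CPM in hypoxia. Its hypoxia libraries spanned a wide range and hypoxia c lay close to the controls (log2 fold change 2.97, SE 0.67, adjusted p = 0.034). SLC43A2, a carrier of large neutral amino acids, rose from 0.729, 0.788 and 0.654 CPM to 38.2, 19 and 5.81 CPM. bhmt, which remethylates homocysteine with betaine, rose from 446, 509 and 412 CPM to 3146, 2307 and 947 CPM (log2 fold change 2.23, adjusted p = 0.011). Prodh, the first enzyme of proline breakdown, had 7.47, 5.58 and 7.91 CPM in control and 107, 52.9 and 13.4 CPM in hypoxia. The calls of SLC38A4 and bhmt were lost without control a or control b, those of slc38a2 and Prodh also in limma-voom and without hypoxia a or hypoxia b, and that of slc38a2 without control c.

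Over the deposited class of lipid transport and metabolism 22 named components rose and 14 fell (5.61 and 3.57% of those tested, median -0.07). The shares were 4.56 and 1.8% over all genes and 3.68 and 2.56% over named ones. The largest rises among lipid genes are given first. PPARA, the nuclear receptor that drives genes of fatty acid oxidation, stood at 12.2, 14.1 and 5.67 CPM in control and at 258, 243 and 216 CPM in hypoxia. insig1, which holds the sterol sensor in the endoplasmic reticulum, stood at 23.8, 24.3 and 16.2 CPM in control and at 369, 292 and 362 CPM in hypoxia. The component named mfsd2ab, a lysophospholipid transporter name over an annotation of FK506-binding protein 1, stood at 2.19, 2.85 and 2.71 CPM in control and at 107, 105 and 103 CPM in hypoxia. Among the largest rises, these genes had hypoxia libraries close to each other. Their log2 fold changes were 4.49, 3.99 and 5.34, with adjusted p of 0.00022, 6.1e-05 and 1.3e-05. Membrane lipid enzymes were less even. PCYT2, which makes CDP-ethanolamine for phosphatidylethanolamine, had 13.7, 16.2 and 16.9 CPM in control and 300, 154 and 51.1 CPM in hypoxia (log2 fold change 3.43, adjusted p = 0.0081). CERS2, a ceramide synthase, had 6.88, 9 and 5.82 CPM in control and 185, 73.8 and 24.4 CPM in hypoxia (log2 fold change 3.71, adjusted p = 0.011). acsbg2, an acyl-CoA synthetase, had 3.18, 2.94 and 2.4 CPM in control and 54.4, 37.9 and 7.13 CPM in hypoxia (log2 fold change 3.54, adjusted p = 0.012). PCYT2, CERS2 and acsbg2 had hypoxia a highest and hypoxia c lowest, and each lost its call without control a or control b. Further components of PCYT2 and acsbg2, at means of 10.3 and 20.7 CPM in control, rose by only 1.09 and 0.72.

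The 38 tested genes for phospholipids, triglycerides and lipid droplets had a median log2 fold change of 0.21 against 0.00 over all genes. With the block 7 of them rose and 1 fell. In the main fit 5 rose (13.2%) and none fell, against 4.56 and 1.8% of all genes. Besides PCYT2 these were PISD, which makes phosphatidylethanolamine in mitochondria (2.51, 3.06 and 4.33 CPM against 13.6, 11 and 8.82 CPM, log2 fold change 1.76), the phosphatidate phosphatase LPIN1 (log2 fold change 2.34), the triglyceride lipase Pnpla2 (1.91) and the lipid droplet protein Cidec (1.52). Between 1 and 5 passed when a library was left out, with 1 left when control a or control b was omitted, and 3 passed in limma-voom. Of 29 lipoprotein and lipid binding genes ANGPTL4, a circulating inhibitor of lipoprotein lipase, rose and 28 did not pass. ANGPTL4 measured 136, 138 and 119 CPM in control and 229, 294 and 342 CPM in hypoxia (log2 fold change 1.14, adjusted p = 0.011). Its groups did not overlap, and its lowest hypoxia library was a. It no longer passed when control a, control b or hypoxia b was omitted.

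**Figure D2:**
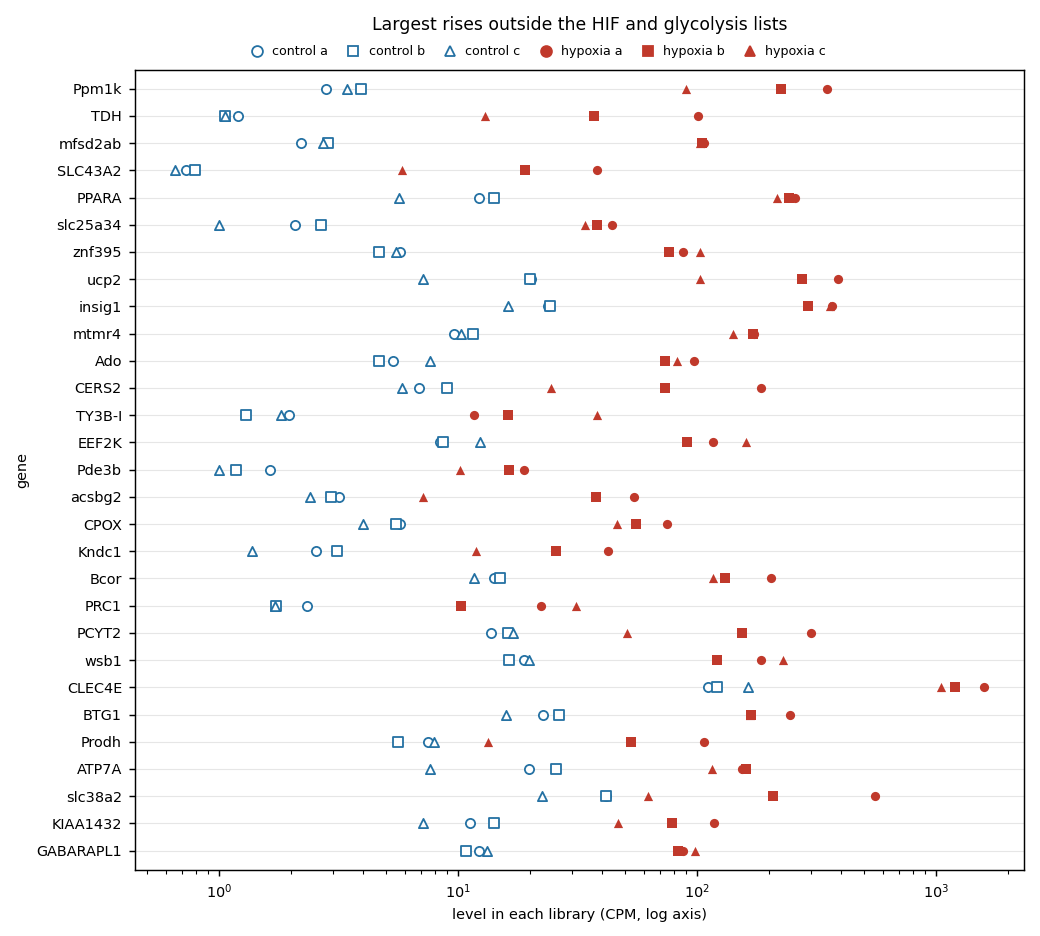
Levels in CPM (log axis) of 29 of the 30 named genes with the largest log2 fold changes that passed, did not overlap between groups and reached 10 CPM, outside the HIF and glycolysis lists; open blue symbols are control and filled red symbols hypoxia libraries, with circles for a, squares for b and triangles for c. Hypoxia a is the highest library in 22 of the 29 and hypoxia c the lowest in 21.

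Regulators of signalling and translation were among the strong risers. EEF2K, the kinase that slows translation elongation by phosphorylating elongation factor 2, had 8.37, 8.61 and 12.3 CPM in control and 117, 91.2 and 160 CPM in hypoxia (log2 fold change 3.65, SE 0.27, adjusted p = 0.00021). Sik2, a salt-inducible kinase of the AMPK-related family, had 95.4, 113 and 140 CPM in control and 998, 597 and 384 CPM in hypoxia (log2 fold change 2.51, adjusted p = 0.0043). Hypoxia c was highest for EEF2K and lowest for Sik2. mtmr4, a phosphatase of phosphatidylinositol 3-phosphate, had 9.59, 11.5 and 10.3 CPM in control and 174, 171 and 141 CPM in hypoxia. znf395, a zinc finger protein, had 5.69, 4.67 and 5.51 CPM in control and 87.8, 76 and 103 CPM in hypoxia. Ado, a thiol dioxygenase annotated as cysteamine dioxygenase, had 5.34, 4.67 and 7.6 CPM in control and 97.2, 73.8 and 82.6 CPM in hypoxia. These 3 genes were even within both groups, with log2 fold changes of 3.95, 4.07 and 3.85 and adjusted p of 4.5e-05, 4.5e-05 and 8.6e-05.

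Further single genes among the largest rises and gains had varied roles. Bcor, named for a corepressor of BCL6 and annotated as BRCA1-associated RING domain protein 1, had 14.1, 15 and 11.7 CPM in control and 204, 131 and 117 CPM in hypoxia (log2 fold change 3.47, adjusted p = 0.00021). BTG1, an antiproliferative gene, had 22.6, 26.4 and 15.8 CPM in control and 244, 169 and 166 CPM in hypoxia. A further BTG1 component, at a mean of 45.2 CPM in control, rose by 1.00, and another did not pass (log2 fold change 0.03, adjusted p = 0.95). The stress response gene Nupr1 had 173, 186 and 224 CPM in control and 609, 506 and 660 CPM in hypoxia (log2 fold change 1.60, adjusted p = 0.0022). wsb1, a substrate adaptor of ubiquitin ligases, had 18.8, 16.4 and 19.8 CPM in control and 186, 121 and 229 CPM in hypoxia (log2 fold change 3.29). PRC1, named for a microtubule bundling protein of cell division, had 2.33, 1.73 and 1.71 CPM in control and 22.2, 10.3 and 31.1 CPM in hypoxia (log2 fold change 3.46). For Bcor and the BTG1 component with the larger rise hypoxia a was the highest library, and for Nupr1, wsb1 and PRC1 it was hypoxia c. TY3B-I, a retrotransposon name annotated as putative transposase, had 1.95, 1.3 and 1.81 CPM in control and 11.6, 16.2 and 38.3 CPM in hypoxia (log2 fold change 3.70). Reads of such repeated elements can be shared between copies, so its level is uncertain. Kndc1 rose by 3.51 and KIAA1432 by 2.90, both with hypoxia a highest.

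The largest gain in CPM belonged to Pck1, which commits carbon to glucose synthesis. It measured 751, 862 and 441 CPM in control and 4599, 3154 and 1917 CPM in hypoxia (log2 fold change 2.24, adjusted p = 0.0083) and lost its call without control a. CLEC4E, named for a pattern recognition receptor of mammalian macrophages, had a smaller gain, from 111, 121 and 164 CPM to 1590, 1203 and 1049 CPM. Its groups did not overlap (log2 fold change 3.28, SE 0.24, adjusted p = 0.00021), and the summed leukocyte markers overlapped between the groups at the values given above. Per length of transcript, on the authors' RPKM scale, the hypoxia means were 1314 for Pck1, 1155 for bhmt and 1054 for CLEC4E, against 1460 for hba. The component named Nt5dc2, annotated as protein polybromo-1, rose by 1.95 and Ca5b, a mitochondrial carbonic anhydrase, by 1.06. Ca5b had an adjusted p of 0.049 and no longer passed in limma-voom, in the unfiltered fit or when any library other than hypoxia c was omitted.

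Of 44 tested genes of heme synthesis, iron, copper and zinc 10 rose (22.7%) and none fell, against 4.56 and 1.8% of all genes, and with the block 12 rose and 1 fell. The median log2 fold change of the list was -0.11, against 0.00 for all genes. Its summed level was 20766 to 23060 CPM in control and 17939 to 18958 CPM in hypoxia, so the sum was lower in every hypoxia library. That sum is mostly the plasma proteins hpx, which binds heme and had means of 11451 and 7580 CPM, and CP, and neither passed. The rises lay in copper export, in iron sensing and uptake, in zinc transport and in a step of heme synthesis. CPOX, the mitochondrial oxidase late in heme synthesis that uses molecular oxygen, had 5.69, 5.52 and 3.99 CPM in control and 74.6, 55.3 and 46.3 CPM in hypoxia (log2 fold change 3.53, SE 0.25, adjusted p = 0.00014). The genes of several other steps did not pass, with log2 fold changes of 0.87 for alas1 (adjusted p = 0.062), -0.23 for ALAD, -0.54 for urod, -0.23 for PPOX and -0.20 for FECH.

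Both copper-exporting ATPases rose. ATP7A, which in mammals serves mostly tissues other than the adult liver, had 19.9, 25.8 and 7.63 CPM in control and 154, 160 and 116 CPM in hypoxia (log2 fold change 3.01, SE 0.40, adjusted p = 0.0039). ATP7B, the copper exporter of mammalian hepatocytes, had 23.7, 28.6 and 17.7 CPM in control and 133, 85.9 and 68 CPM in hypoxia (log2 fold change 2.03, SE 0.28, adjusted p = 0.0049). In both genes control c was the lowest control and hypoxia c the lowest hypoxia library. The copper importer SLC31A1 had means of 126 and 117 CPM and the copper-binding plasma protein CP means of 7814 and 6794 CPM, without passing.

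Iron genes that rose act on either side of the iron sensing system. fbxl5, the ubiquitin ligase subunit that degrades iron regulatory proteins, had 19.9, 19.4 and 12.9 CPM in control and 56.1, 56.6 and 48.9 CPM in hypoxia (log2 fold change 1.63, adjusted p = 0.0028). Ireb2, an iron regulatory protein annotated here as aconitate hydratase 1, had 16.1, 16.5 and 11.7 CPM in control and 37.9, 34.9 and 30.5 CPM in hypoxia (log2 fold change 1.22, adjusted p = 0.007). NCOA4, the receptor that carries ferritin to lysosomes, had 73.4, 75.9 and 143 CPM in control and 278, 340 and 364 CPM in hypoxia (log2 fold change 1.75, adjusted p = 0.0084). The groups of all 3 were separate. TFRC, the transferrin receptor, also listed among HIF targets and erythroid markers, rose from 228, 242 and 150 CPM to 733, 490 and 472 CPM (log2 fold change 1.45), while the erythroid markers hba, hbb, alas2 and SLC4A1 overlapped between groups. The ferritin name FTH1 was found only at means of 0.4 and 1.5 CPM, and the iron exporter slc40a1 had 38.1 and 38.3 CPM. Zinc and manganese transporters that rose were slc39a13 (log2 fold change 0.99), Slc30a4 (0.87) and Slc30a10 (1.24), and slc39a13 carries an annotation from the major histocompatibility complex. CPOX, ATP7A, ATP7B, fbxl5 and Ireb2 passed under every alternative, and 5 of the list passed without control a and 6 without control b.

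Chromatin enzymes moved in both directions. Of 41 tested, 7 rose (17.1%) and 2 fell (4.88%), against 4.56 and 1.8% of all genes, with a median of 0.01. The risers were histone demethylases of the Jumonji family, a TET enzyme that oxidises methylated cytosine, and class IIa histone deacetylases, of which the demethylases and TET enzymes use oxygen and 2-oxoglutarate. KDM3B had 22.3, 25.8 and 22.5 CPM in control and 77.9, 73.1 and 67.4 CPM in hypoxia (log2 fold change 1.63, adjusted p = 0.00087). Kdm4a, KDM5B and KDM6B rose by 1.78, 1.40 and 2.06 on the log2 scale. Other demethylase names of the list did not pass, among them KDM5A (-0.01), KDM6A (-0.12), KDM4C (-0.20), KDM1A (-0.11) and kdm2a (0.57, adjusted p = 0.071). TET3 had 7.64, 8.24 and 3.49 CPM in control and 41, 33.7 and 22 CPM in hypoxia (log2 fold change 2.32, adjusted p = 0.0065), and TET2 had a log2 fold change of 0.11. Hdac4 had 7.12, 8.55 and 9.59 CPM in control and 42.9, 36.7 and 42 CPM in hypoxia (log2 fold change 2.27, SE 0.18, adjusted p = 0.00025). HDAC5 went from 92, 108 and 66.7 CPM to 357, 232 and 147 CPM (log2 fold change 1.47, adjusted p = 0.03). The writers that fell were ezh2, the methyltransferase of Polycomb repressive complexes (0.758, 0.667 and 0.747 CPM against 0.151, 0.166 and 0.265 CPM), and DNMT1, which copies DNA methylation at replication (17.4, 21.6 and 18.4 CPM against 11.4, 13.2 and 9.38 CPM). Between 6 and 8 of the list rose whichever library was left out, and 9 rose with the block. Neither fall passed without control a, b or c or without hypoxia a or b, and 1 passed without hypoxia c.

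Cyclic AMP and G protein genes likewise split. Of 43 tested, 6 rose (14%) and 3 fell (6.98%), against 4.56 and 1.8% of all genes, with a median of 0.17. ADORA2B, the adenosine receptor coupled to cyclic AMP production, had 0.846, 0.697 and 0.685 CPM in control and 8.95, 7.33 and 8.26 CPM in hypoxia (log2 fold change 3.45, SE 0.22, adjusted p = 8.9e-05). Pde3b, a phosphodiesterase that breaks down cyclic AMP, was held by 2 components. The more abundant had 17.1, 20.4 and 15.9 CPM in control and 116, 95 and 82.4 CPM in hypoxia, and the other rose by 3.57 from 1.63, 1.18 and 0.997 CPM. CREM, a transcription factor of cyclic AMP responses, had 4.72, 6.09 and 6.29 CPM in control and 59.4, 26.5 and 21.1 CPM in hypoxia (log2 fold change 2.65, adjusted p = 0.0052). RGS4, a brake on G protein signalling, rose by 1.45, PDE8A by 0.92 and Nfat5 by 0.74. The phosphodiesterases PDE9A and PDE3A fell by 1.13 and 1.00, and the protein kinase A subunit PRKAR2A fell by 0.80. ADORA2B, Pde3b, CREM and RGS4 passed under every alternative. None of the 3 falls passed without control a or control b, and only 1 passed without hypoxia a or without hypoxia b. With the block 8 of the list rose and 3 fell.

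**Figure D3:**
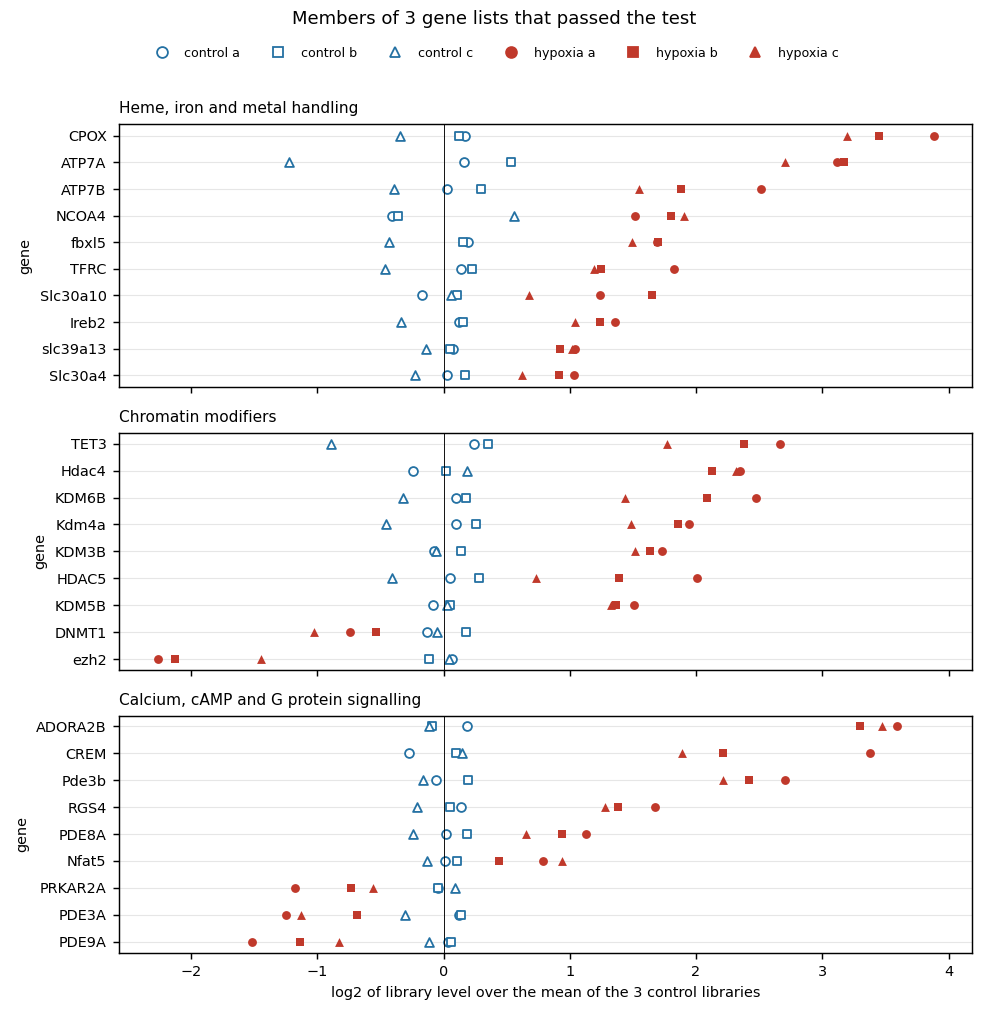
For each member of the metal, chromatin and cyclic AMP lists that passed, the log2 of each library's level over the mean of the 3 controls; open blue symbols are control and filled red symbols hypoxia libraries, with circles for a, squares for b and triangles for c. All members shown have separate groups, which follows largely from their choice through the test. CPOX, TET3 and ADORA2B are highest in their panels and ezh2 lowest of all.

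Of 44 genes of insulin and energy sensing 5 rose (11.4%) and 1 fell (2.27%), against 4.56 and 1.8% of all genes, with a median of 0.11, and with the pool letter as a block 8 rose. irs1-b, an insulin receptor substrate, had 15.7, 15.4 and 7.44 CPM in control and 104, 62.8 and 68.5 CPM in hypoxia (log2 fold change 2.61, SE 0.32, adjusted p = 0.0027). PRKAG2, a gamma subunit of the energy sensor AMPK, had 38.7, 42.8 and 32 CPM in control and 94.8, 80.3 and 76.4 CPM in hypoxia (log2 fold change 1.15, adjusted p = 0.0077). sgk1, ddit4 and foxo1b rose by 2.38, 1.70 and 1.17. GRB14, an adaptor that inhibits the insulin receptor, fell from 13.8, 13.5 and 18.8 CPM to 5.11, 6.39 and 7.87 CPM (log2 fold change -1.25, adjusted p = 0.012). Without control a only 1 of the list rose, and without control b 2 did, while without both c libraries 9 rose and 4 fell.

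Among kinase cascades and growth factor pathways single genes passed in both directions. DUSP8, a phosphatase of MAP kinases, had 3.97, 4.18 and 2.9 CPM in control and 26.5, 17.9 and 18.9 CPM in hypoxia (log2 fold change 2.52, SE 0.23, adjusted p = 0.00057), and DUSP16 rose by 1.13. MAP3K4, a kinase upstream of p38 and JNK, was even within each group at 15.5, 15.6 and 15.7 CPM in control and 6.68, 7.13 and 7.28 CPM in hypoxia (log2 fold change -1.15, SE 0.15, adjusted p = 0.0035). ERBB3, a growth factor receptor of the epidermal growth factor family, had 191, 213 and 233 CPM in control and 65.3, 65.5 and 105 CPM in hypoxia (log2 fold change -1.43, adjusted p = 0.008). Of 35 genes of MAP kinases and their phosphatases 2 rose and 2 fell (5.71% each, against 4.56 and 1.8% of all genes, median -0.03), with 5 rising under the block. Of 36 genes of TGF-beta and BMP signalling Smurf1, a ubiquitin ligase for SMADs, rose by 1.19 and SMAD3 by 0.98, while BMP4 fell by 0.96 and BAMBI by 0.90 (5.56% in each direction, median 0.05, with 5 rising under the block). Of 36 Wnt, Notch and Hippo genes Ctgf rose by 2.30 and WNT11 by 1.22, while CYR61, of the same family as Ctgf, fell by 1.10. That list had 5.56% risers and 2.78% fallers, with a median of -0.02. The calls of SMAD3, BMP4, BAMBI, WNT11 and CYR61 were lost whenever an a or b library was left out. HGF, the hepatocyte growth factor, had 50, 48.9 and 43.3 CPM in control and 104, 77 and 101 CPM in hypoxia (log2 fold change 0.99, adjusted p = 0.014).

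Of 30 genes of innate sensing and NF-kappa B 7 rose (23.3%) and none fell, against 4.56 and 1.8% of all genes, with a median of 0.41 against 0.00. Tnfaip3, a ubiquitin editing inhibitor of the pathway, had 3.53, 5.09 and 3.8 CPM in control and 9.49, 9.76 and 7.75 CPM in hypoxia (log2 fold change 1.12, adjusted p = 0.016), and Nfkbia, which retains NF-kappa B in the cytoplasm, rose by 1.06. Traf4 had 3.32, 4.33 and 4.77 CPM in control and 8.34, 11.5 and 10.5 CPM in hypoxia (log2 fold change 1.29, adjusted p = 0.0092). Tlr3, Tnfrsf11b, Relb and Traf2 rose by 1.35, 1.18, 0.74 and 0.88. No member passed without control a or without hypoxia b, and 1 passed without control b and 1 without hypoxia a. Of 28 genes of cytokine receptors, JAK-STAT and interferon 0 passed in edgeR, with a median of -0.24, and the difference between these lists was not tested.

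Autophagy, translation control and mRNA decay each held a few risers. The shares that rose were 7.27% of the autophagy list and 5.66% of the mRNA decay list, against 4.56% of all genes. GABARAPL1, an ATG8 family protein of the autophagosome membrane, had 12.2, 10.8 and 13.2 CPM in control and 87.1, 83.3 and 98.3 CPM in hypoxia (log2 fold change 2.89, SE 0.17, adjusted p = 7.1e-05). WIPI2, atg13 and Lamp1 rose by 0.89, 0.85 and 0.74, and the other 51 of 55 autophagy and lysosome genes did not pass (median -0.01). Without control a, control b or hypoxia b only 1 of the 4 passed. EIF2AK4, the kinase that senses uncharged tRNA, had 10.1, 10.4 and 8.19 CPM in control and 30.4, 20.7 and 13.6 CPM in hypoxia (log2 fold change 1.17, adjusted p = 0.04), and was the only call among 37 genes of tRNA synthetases and amino acid synthesis. It no longer passed in limma-voom, in the unfiltered fit or when any library other than hypoxia c was omitted. Beside BTG1, the deadenylation genes Btg3 and CNOT6 rose by 1.37 and 0.94, and none of the 53 genes of the mRNA decay list fell (5 rose under the block). Of 51 splicing genes 1 rose, SF3B1 by 0.85, and 1 fell, with a median of -0.10.

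Transporters and hormone enzymes with low control levels were also among the risers. The potassium channel KCNK5 had 0.292, 0.485 and 0.125 CPM in control and 2.87, 2.63 and 1.68 CPM in hypoxia (log2 fold change 2.97, adjusted p = 0.0066). slc12a9 had 5.25, 4.76 and 2.93 CPM in control and 45.8, 24.1 and 13.7 CPM in hypoxia (log2 fold change 2.69, adjusted p = 0.0081). dio3, which inactivates thyroid hormone, had 8.87, 13 and 5.01 CPM in control and 51.5, 38.3 and 26.8 CPM in hypoxia (log2 fold change 2.12, adjusted p = 0.011). TIPARP, a mono-ADP-ribosyltransferase, had 8.34, 8.61 and 6.95 CPM in control and 29.6, 26.2 and 23.3 CPM in hypoxia (log2 fold change 1.73, adjusted p = 0.001), and Nampt, which makes the precursor of NAD, rose by 0.97. In KCNK5, slc12a9, dio3 and TIPARP control c was the lowest control and hypoxia c the lowest hypoxia library. KCNK5 and dio3 lost their calls without control a, and slc12a9 without control b.

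The falls were smaller and spread over transcription, lipid uptake, sulfation and glucose output. Of the 30 largest falls named by rule 9 passed under every alternative, against 25 of the 30 largest rises. Nr1d1, a repressor in the circadian clock, fell in all 3 of its tested components, of which the most abundant had 39.3, 32.5 and 19.2 CPM in control and 3.66, 4.09 and 8.58 CPM in hypoxia (log2 fold change -2.48, adjusted p = 0.0069). Klf11, a zinc finger transcription factor annotated as krueppel-like factor 10/11, had 326, 328 and 350 CPM in control and 77, 141 and 83.3 CPM in hypoxia (log2 fold change -1.74, SE 0.25, adjusted p = 0.0052). NCOR1, a nuclear receptor corepressor, had 301, 332 and 159 CPM in control and 90.1, 102 and 119 CPM in hypoxia (log2 fold change -1.35, adjusted p = 0.023), with control c nearest to the hypoxia libraries. The transcription factors grhl1 and SRF and the corepressor gro2 fell by 1.74, 1.39 and 1.49. NCOR1, SRF and gro2 lost their calls whenever an a or b library was left out, and grhl1 without control a.

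Metabolic genes among the falls included LPL, the lipase that frees fatty acids from lipoproteins. Its more abundant component had 294, 296 and 323 CPM in control and 127, 120 and 123 CPM in hypoxia (log2 fold change -1.30, SE 0.16, adjusted p = 0.0023), a further component fell by 1.88, and another, at means of 16.8 and 28.7 CPM, did not pass (log2 fold change 0.77, adjusted p = 0.26). G6PC, which releases free glucose, had the largest loss in CPM, from 2823, 3132 and 2127 CPM to 1381, 1094 and 859 CPM (log2 fold change -1.28, adjusted p = 0.015). ppp1r3b, which targets a phosphatase to glycogen, fell from 61.2, 64.2 and 114 CPM to 21.4, 34.7 and 34.1 CPM (log2 fold change -1.41, adjusted p = 0.024). Nadk, the kinase that makes NADP, fell from 13.6, 14.2 and 9.34 CPM to 2.69, 4.51 and 4.57 CPM (log2 fold change -1.66, adjusted p = 0.0079). Ampd3, an AMP deaminase, fell by 1.29. ECI2, SEC14L2, a lipid binding protein, and URH1 fell by 0.92, 0.97 and 0.81. G6PC and Ampd3 no longer passed without either control a or b or without hypoxia b, and Nadk without control a. The calls of ppp1r3b, ECI2, SEC14L2 and URH1 were lost whenever an a or b library was left out. That of ECI2 was also lost without control c and that of URH1 without hypoxia c.

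Enzymes that conjugate or oxidise small molecules also fell. Ugt2a2, a glucuronosyltransferase, had 57.9, 54.2 and 37.4 CPM in control and 15, 15.2 and 16 CPM in hypoxia (log2 fold change -1.69, SE 0.20, adjusted p = 0.0021). SULT2B1, a steroid sulfotransferase, had 81.7, 78.6 and 50.7 CPM in control and 18.5, 31 and 31.2 CPM in hypoxia (log2 fold change -1.39, adjusted p = 0.017). Cyp2f2, a cytochrome P450, had 877, 910 and 1405 CPM in control and 383, 652 and 460 CPM in hypoxia (log2 fold change -1.09, adjusted p = 0.043), and its call was lost whichever library was left out. hs6st1b, which sulfates heparan sulfate, had 23.1, 26.8 and 18.8 CPM in control and 3.96, 5.61 and 7.28 CPM in hypoxia (log2 fold change -2.03, adjusted p = 0.0026). Mgea5, the enzyme that removes O-linked N-acetylglucosamine from proteins and is annotated as hyaluronoglucosaminidase, had 83.8, 85 and 59.1 CPM in control and 25.4, 37.8 and 25.2 CPM in hypoxia (log2 fold change -1.37, adjusted p = 0.01). CBR1, a carbonyl reductase, and ASMTL, annotated as acetylserotonin N-methyltransferase, fell by 1.38 and 1.08. SULT2B1, CBR1 and ASMTL lost their calls whenever an a or b library was left out, and Mgea5 without control a or control b. ppdpfb, which carries the name of a pancreatic progenitor factor, had 628, 659 and 622 CPM in control and 211, 258 and 266 CPM in hypoxia (log2 fold change -1.38, SE 0.17, adjusted p = 0.0027). The summed exocrine pancreas markers overlapped between the groups, with a median log2 fold change of 0.61.

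**Figure D4:**
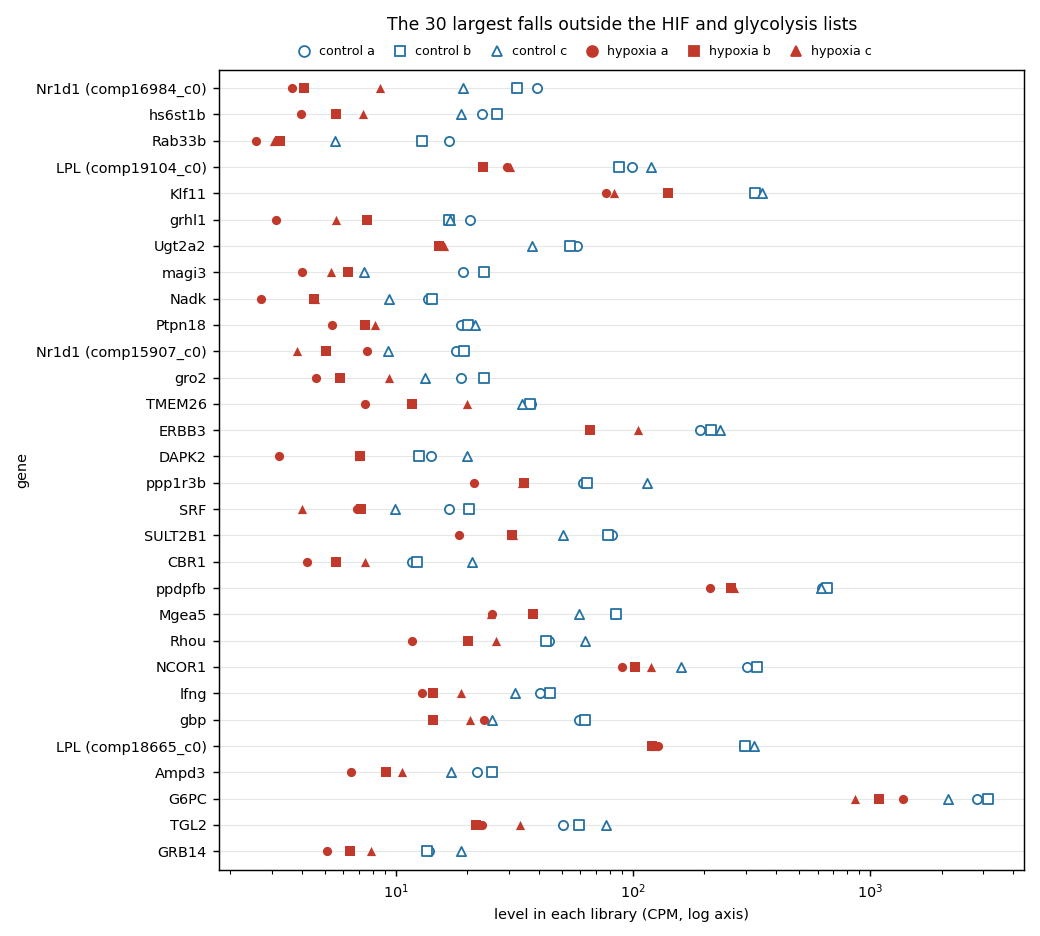
Levels in CPM (log axis) of the 30 named components with the lowest log2 fold changes that passed, did not overlap between groups and reached 10 CPM, outside the HIF and glycolysis lists; open blue symbols are control and filled red symbols hypoxia libraries, with circles for a, squares for b and triangles for c. Control c is the lowest control in 18 of the 30, and hypoxia a is the lowest hypoxia library in 22.

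Other genes among the falls had varied roles. Rab33b, a vesicle GTPase, had 16.7, 12.9 and 5.51 CPM in control and 2.57, 3.26 and 3.07 CPM in hypoxia (log2 fold change -1.98, adjusted p = 0.016). Rhou, a small GTPase, had 44.4, 42.9 and 62.4 CPM in control and 11.7, 20.1 and 26.3 CPM in hypoxia (log2 fold change -1.37, adjusted p = 0.028). MYO1E, an unconventional myosin, had 28.1, 28.8 and 29.2 CPM in control and 13.1, 13.7 and 15.8 CPM in hypoxia (log2 fold change -1.01, SE 0.15, adjusted p = 0.0065). The scaffold magi3, the phosphatase Ptpn18, the kinase DAPK2, the transglutaminase TGL2, lfng, which modifies Notch, and TMEM26 fell by 1.68, 1.53, 1.43, 1.25, 1.35 and 1.47. Of these Ptpn18 passed under every alternative. The calls of magi3, DAPK2 and TMEM26 were lost whenever an a or b library was left out, and that of magi3 also in limma-voom. TGL2 lost its call without control b, hypoxia a or hypoxia b, and lfng without control a. gbp fell by 1.34 with an adjusted p of 0.05 as rounded, and its call was lost under 9 of 13 alternatives. CLDN2, a tight junction claudin, had 123, 143 and 133 CPM in control and 89.4, 77.8 and 52.8 CPM in hypoxia (log2 fold change -0.86, adjusted p = 0.049), and it no longer passed with DESeq2 size factors, in the unfiltered fit or when any library was omitted. In the secretory pathway SAR1A, the GTPase of coat assembly at the endoplasmic reticulum, and Mcfd2, a cargo receptor subunit, fell by 0.88 and 0.79. The other 46 of 48 genes of that list did not pass (median -0.17, with 4.17% fallers against 1.8% of all genes). Rab33b and Rhou lost their calls whenever an a or b library was left out, and neither fall of the secretory list passed under those same omissions.

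Of 57 genes of mitochondrial dynamics, import and quality control 4 fell (7.02%) and none rose, with a median of -0.19. Over all genes 1.8% fell and 4.56% rose. The fallers were timm21 and timm13-a, parts of the import machinery, AFG3L2, an inner membrane protease, and MPC2, a subunit of the pyruvate carrier. timm13-a had 15.9, 15.7 and 15.8 CPM in control and 11.3, 9.73 and 8.9 CPM in hypoxia (log2 fold change -0.66, adjusted p = 0.044), and timm21 fell by 1.03. None of the 4 passed when any a or b library was left out. With the block 6 of the list fell. The mitochondrially encoded MT-ND4, a complex I subunit, had 2428, 2103 and 2237 CPM in control and 1518, 1253 and 1327 CPM in hypoxia (log2 fold change -0.72, adjusted p = 0.036), and it no longer passed when any library other than control c was omitted. Of 44 peroxisome genes 2 fell (4.55%) and none rose, with a median of -0.32, and with the block 6 fell and 1 rose. Their summed level was 3209 to 4971 CPM in control and 3998 to 5823 CPM in hypoxia, so the sum overlapped between groups. The KEGG peroxisome class, with other members, had 6 risers (9.52%) and no faller among 63 components (median -0.20). It had 2 risers (4%) among 50 when each name was counted once. PEX11G, of a family that divides peroxisomes, had 7.93, 7.64 and 9.81 CPM in control and 2.51, 3.48 and 3.63 CPM in hypoxia (log2 fold change -1.40, SE 0.21, adjusted p = 0.0072), and PXMP4 fell by 1.03. In 17 of the 44 all hypoxia libraries lay below all controls and in 1 above, where 13.7% of all genes tested lay below and 14.6% above. The peroxisome assembly gene PEX13 had a log2 fold change of -0.68 and did not pass (adjusted p = 0.069).

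In each of the remaining lists at most 3 members rose and at most 2 fell. Their shares ran from 0 to 8.82% risers and from 0 to 4.76% fallers, against 4.56 and 1.8% of all genes. The shares by list are plotted beside those of all genes and were not tested against them. Of 49 phosphoinositide and inositol genes 3 rose, mtmr4, PIP4K2A (log2 fold change 1.16) and pi4k2a (1.68), and 2 fell, the phospholipase PLCB1 (-1.52) and Mtmr9 (-0.96). PIP4K2A was even, at 4.84, 4.36 and 5.05 CPM in control and 11.2, 9.29 and 11.4 CPM in hypoxia. Of 52 glycosylation genes Mgat2, which branches N-linked glycans, rose by 1.53 and GFPT2, of the hexosamine pathway, by 1.26, while Mgea5 and Alg10b fell (median -0.21, with 4 falling under the block). Of 42 junction and polarity genes Pard6g rose from 6.42, 6.94 and 5.82 CPM to 16.4, 16 and 15.6 CPM and passed under every alternative, while CLDN2 and PVRL3 fell. Of 49 small GTPases and regulators ARHGAP1, annotated as myosin IX, rose by 1.12 and Rhou fell. Of 51 actin, tubulin and motor genes MYO1E and TUBG1, the nucleating tubulin, fell. Of 34 genes in the list of protease inhibitors and plasma proteins Adamts1, timp3 and ADAM10 rose by 0.86, 1.13 and 1.00 (8.82% of the list). Adamts1, annotated as an ADAM metallopeptidase, and ADAM10 are named for proteases rather than inhibitors. Of 53 genes of nucleotide and one-carbon metabolism bhmt and PRPS1 (1.21) rose and Ampd3 fell. Of 44 ion channels and pumps KCNK5, slc12a9 and Slc12a7 (0.73) rose. Of 41 ABC and organic solute carriers ABCC5 rose by 0.91 and slc22a15b fell by 0.61, and with the block 3 rose and 3 fell. Of 38 genes of NAD, sirtuins and PARPs TIPARP and Nampt rose and gpd1l fell by 0.98, with 4 rising under the block, and of 47 nuclear pore genes xpot, the exporter of tRNA, rose by 1.11. Of 35 genes listed as secreted regulators and hormone related genes HGF and dio3 rose and ERBB3 fell. Without control a the riser count was 0 for glycosylation, small GTPases, protease inhibitors, nucleotide metabolism, ABC carriers, secreted regulators and the nuclear pore, and 1 for phosphoinositides, junctions, ion channels and NAD.

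Over all genes tested 4.56% rose and 1.8% fell. Across the 31 lists by role, the share of members that rose was highest in innate sensing (23.3%), metal handling (22.7%), chromatin (17.1%) and cyclic AMP (14%). Since the lists were chosen with earlier results of these data known, this order is a description only and was not tested. This order held for the fit of all libraries: when an a or b library was omitted, innate sensing had 0 or 1 risers, metal handling 5 to 8, chromatin 6 and cyclic AMP 4. The share that fell was highest in mitochondrial dynamics and import (7.02%) and cyclic AMP (6.98%). These shares rest on 4 and 3 calls, of which none passed without control a or control b, and the mitochondrial list had 2 in limma-voom. Lists in which 1 or 2 members passed in all were those of lipoproteins, peroxisomes, the secretory pathway, splicing, tRNA synthetases, the nuclear pore, ABC transporters, actin and tubulin, small GTPases and liver transcription factors. Of 24 liver transcription factors nfil3, which represses clock output genes, had 8.17, 9.46 and 16.9 CPM in control and 70.2, 32.3 and 28 CPM in hypoxia (log2 fold change 1.92, adjusted p = 0.025), and Tcf7l2 rose by 1.07. Neither passed when any a or b library was left out, while 5 of the list rose with the block. In the usual sets 21 of 48 HIF genes (43.8%) and 7 of 20 glycolysis genes (35%) rose and none fell. Examples were hif1an (8.98, 9.7 and 8.85 CPM against 75.7, 71.9 and 77.4 CPM) and ldha (7.64, 7.36 and 9.41 CPM against 51.9, 55.3 and 58.8 CPM). With the block 23 HIF genes and 7 glycolysis genes rose, and 1 of each list fell.

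**Figure D5:**
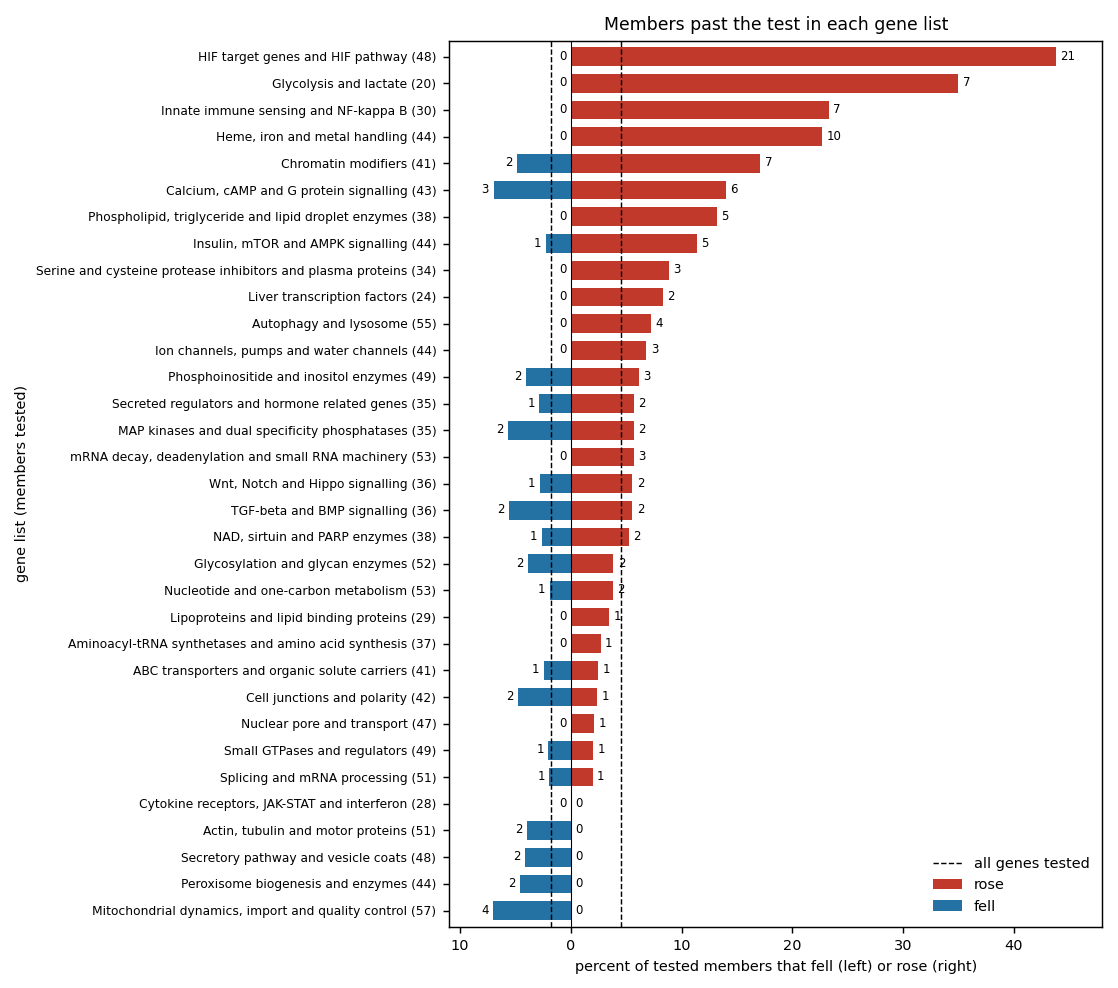
For 31 role lists and the HIF and glycolysis lists (top), the percent of tested members that rose (red, to the right) or fell (blue, to the left), with the number past the test at each bar end and the number tested in parentheses; dashed lines mark 4.56% and 1.8%, the shares of all genes tested. The HIF list stands highest with 21 of 48 members, followed by glycolysis with 7 of 20. Lists were chosen with earlier results of these data known.

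The functional classes written in the deposited table, which each component may hold several of, gave a similar spread. Their shares stand against 4.56% risers and 1.8% fallers over all genes tested. Over named components, the only ones counted in the classes, the shares were 3.68 and 2.56%. Carbohydrate transport and metabolism had 27 risers and 11 fallers among 303 named components (8.91 and 3.63%), amino acid transport and metabolism 18 and 4 of 257 (7 and 1.56%), and inorganic ion transport 12 and 3 of 196 (6.12 and 1.53%). Close to the shares of all genes were transcription, with 42 and 19 of 849 (4.95 and 2.24%), and signal transduction, with 85 and 48 of 1980 (4.29 and 2.42%). Apart from KEGG pathways, the class with the most negative median was replication, recombination and repair, where 6 rose and 15 fell of 213 (2.82 and 7.04%, median -0.28). Some KEGG pathways had lower medians, down to -0.59 in heparan sulfate biosynthesis. Translation had 5 risers and 9 fallers of 403 (1.24 and 2.23%), with a median of -0.17. Among KEGG pathways of at least 15 tested components, the pentose phosphate pathway had 8 risers and 1 faller of 38 (21.1 and 2.63%). The class of glycolysis and gluconeogenesis had 12 and 3 of 71 (16.9 and 4.23%). How many risers of the pentose phosphate class are glycolytic enzymes was not counted. Sphingolipid metabolism had 6 risers of 41 (14.6%) and adipocytokine signalling 14 risers and 3 fallers of 93 (15.1 and 3.23%). Mismatch repair had 5 fallers of 32 (15.6%), retinol metabolism 5 of 39 (12.8%) and steroid hormone biosynthesis 4 of 26 (15.4%), each with no riser. Neighbouring pathways share genes, and some of these components share a name. Counted once per name, the pentose phosphate pathway had 6 risers of 26, sphingolipid metabolism 6 of 32 and adipocytokine signalling 10 of 61. Mismatch repair then had 3 fallers of 25, retinol metabolism 5 of 29 and steroid hormone biosynthesis 3 of 21.

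A gene name often stood for several components that did not move alike. Of 2345 names with several tested components 278 had at least 1 past the test, and in 257 of these some components passed and others did not. In 21 names every component passed in the same direction, among them CREM, Nr1d1, PCYT2, Pde3b and NUAK2, an AMPK-related kinase whose components rose by 1.63 and 1.67. In 2 names components passed in both directions: pol, a retroelement name over annotations of transposase and arylsulfatase, and mtus1a, whose components are annotated as phospholipase C beta, which fell, and adenylate cyclase, which rose. Fragments of a transcript, paralogs of the duplicated fish genome and wrongly transferred names cannot be told apart here. Hdac4 rose in 3 of its components and BMP2 fell in components at 2.82 and 4.05 CPM in control. The BMP2 component at 13.5 CPM in control stood at 23.8 CPM in hypoxia, with separate groups (log2 fold change 0.82). It did not pass (adjusted p = 0.064), but rose with the pool letter as a block (adjusted p = 0.022). The counts of names above are from the main fit. OGDH, the 2-oxoglutarate dehydrogenase subunit, rose in components at 0.884 and 2.63 CPM in control, while the abundant component, at 75.2 and 84.2 CPM, did not pass (log2 fold change 0.16, adjusted p = 0.77).

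The authors' deposited table marks as significant 436 named components, and 404 of these passed here. By the p-value alone, which is a wider criterion than that mark, 293 of the 479 risers and 170 of the 333 fallers were under 0.05 in the authors' deposited table.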

How the data were processed

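The deposited mRNA table of 6 liver libraries holds estimated (expected) counts and RPKM values per component, and a p-value per component from the authors' own comparison. Per the labels' protocols, the authors removed adaptor, ambiguous and low-quality reads and assembled transcripts with Trinity. Per the submitters' processing notes, RSEM 1.2.3 and DESeq were among the tools used. Small RNA data were not used here.

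Expected counts deposited by the authors were rounded to whole numbers, filtered with filterByExpr, scaled by TMM and tested with edgeR 4.0.16 (R 4.3.3) by the quasi-likelihood test, hypoxia against control, with Benjamini-Hochberg adjustment over all tested components and a threshold of 0.05. The SE was taken as the size of the log2 fold change over the root of the F statistic. CPM uses TMM-scaled library sizes, and RPKM is the authors' deposited value. With 3 pools of different fish per group, p-values measure the spread between pools. On simulated data for this comparison with 24531 genes, the test recovered 18% of genes changed by a log2 fold change of 1 and 97% of those changed by 2, with 10 false calls. The 200 changed genes were drawn only from those above a minimum mean level, and the simulated pools were not paired by letter. In the data 1159 components rose and 458 fell, and the adjusted p depends on how many genes change. These recovery rates therefore need not hold for components at low levels or for the number of changes in the data.

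Gene lists stand for each gene by its most abundant component. Named are the 30 highest and 30 lowest log2 fold changes with separate groups and a mean of at least 10 CPM, the 12 largest gains and losses in CPM, the 2 members with the smallest adjusted p in each list, and tissue checks; other list members were added after their values were seen. Members and lists were chosen with earlier results of these data known. Neither a reference genome nor sequences were used, so names are those of the deposited table. A few genes that the rule names are not reported here.

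Deviations from group means correlated between libraries of the same letter, at 0.148 for a, 0.192 for b and 0.311 for c, against -0.286 to 0.184 between letters. By the rule that every same-letter correlation exceed 0.1 the letters pair the pools, but the main fit does not use this pairing. For letter a this is weak, since hypoxia a correlated more with control b (0.184) than with control a (0.148). Adjusted p values are from the main fit, which has no block, unless a block is stated. Of its 812 named calls 805 passed the same way with the block. Blocked counts are given beside some of the results whose calls they change. The labels place both groups in the same aquaria but tie no letter to an aquarium. Alternatives were DESeq2 1.42.0 size factors, its Wald test, limma-voom (limma 3.58.1), no filter, a filter of 1 CPM in 3 libraries, the replicate block, leaving out each library, and leaving out both c libraries. Python 3.11.15, pandas 2.3.3, numpy 2.4.6 and matplotlib 3.10.9 were used.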

Additional observations from a re-analysis of the deposited data

How the results depend on the processing

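Leaving out 1 library moved the counts most. Named risers numbered 479 and ranged from 153 without control a to 639 without hypoxia c, and named fallers numbered 333 and ranged from 34 without control a to 382 without control c. Over all components risers ranged from 338 to 1337 and fallers from 45 to 518. Without both c libraries 1082 named genes rose and 1019 fell, and 2337 and 1479 over all components; the cause was not tested. With the replicate block 723 named genes rose and 568 fell, and 798 fell over all components. DESeq2's Wald test called 574 named and 797 of all components as fallen. The other alternatives stayed within 1.5 times each main count. Of 131 genes named by rule 126 passed, 58 of these in every alternative, and none of these 126 changed direction; the block ended none of these calls. Of the tissue checks that did not pass, hba and hbb went from log2 fold changes of -0.35 and -0.32 to 0.04 and 0.06 without hypoxia a. Of the 812 named calls 805 passed with the block and 179 in all 6 fits that left out a library. Having 3 pools per group limits the detection of small changes.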
